A study of Drosophila melanogaster with 18 samples.

Results

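Protein folding and stress signalling in the endoplasmic reticulum (ER) were followed through 10 genes in whole heads of Drosophila melanogaster given air alone, 1 exposure or 5 exposures to ethanol vapor. The genes were Hsc70-3, Gp93, Calr, Pdi, ERp60, CaBP1, Der-1, Ire1, Xbp1 and crc, and a probe set was taken as one of them when the platform annotation gave it that symbol and no other. This found 9 probe sets, of 14010 in the table, for 8 of the 10 genes. Xbp1 and Calr matched none and were not analysed here. There were 2 probe sets for Hsc70-3 and 1 for each of the other 7 genes.

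All flies were of the strain Canton-S with no transgene named in the labels, aged 2 to 5 days, and each array held RNA pooled from about 60 heads, with 6 arrays labelled as biological replicates in each group. Naive flies breathed humidified air for 50 min. Single-exposure flies had the same air period and then 50% ethanol vapor for 40 min, and 5-exposure flies had 5 such ethanol periods after the air. The sex of the flies, the spacing of the 5 exposures and an air control of matching duration are not stated. The series is titled as a time course of ethanol tolerance that is fast, after 1 exposure, or chronic, after several. The titles end in codes that run on from group to group. The labels do not say what the codes number, and any order they stand for cannot be told apart from treatment.

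The ER is where secreted and membrane proteins fold. Hsc70-3 is the fly BiP, the Hsp70-type chaperone of its lumen, Gp93 is the Hsp90-type chaperone there, and Pdi, ERp60 and CaBP1 are disulfide isomerases, which form and reshuffle disulfide bonds. Proteins that fail to fold are exported for degradation, a route in which Der-1, a Derlin, acts at the membrane. When unfolded proteins build up, the membrane kinase and nuclease Ire1 splices the messenger of the transcription factor Xbp1, and a second branch, through the kinase PEK, raises translation of crc, the fly ATF4. Both branches act largely through splicing and translation, which a probe set intensity does not report. In mammals and flies the resulting response raises chaperone and degradation genes, and ATF4 raises genes of amino acid supply and redox balance.

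The authors deposited linear intensities, and array medians ran from 125.4 to 129.3. Naive replicate 5 was the least correlated with its own group, at a mean r of 0.982 against at least 0.988 for the 17 others. Of the head tissue markers, the photoreceptor channel gene trp (mean intensity 2158 in naive heads), the neuronal gene nSyb (717) and the glial gene repo (197) were all tested, while ninaE matched no probe set and that of elav was not tested. Folds below are from limma with 95% confidence intervals, and a probe set was called at a Benjamini-Hochberg adjusted p under 0.05 over 9311 tested probe sets. Of the 9 probe sets, 8 were in that test. The ninth, Hsc70-3 143193_at, lay below the intensity floor of 57.8 on all 18 arrays.

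Of these genes, Der-1 rose after 1 exposure and was lower after 5 than after 1, and Pdi and ERp60 rose between 1 exposure and 5, each with a fold of 1.16 to 1.18 or, for the fall, 0.868. After 1 exposure 1 of the 8 tested probe sets was called higher (Der-1), where 2.57% of all tested probe sets were, and 0 lower, where 1.86% were. After 5 exposures 0 were called against naive heads in either direction, where 2.48% of all probe sets were higher and 3.86% lower, although 3 of the 8 had an unadjusted p under 0.05 in limma (17.5% of all), as 3 did after 1 exposure (14.9%) and 5 between the ethanol groups (18.2%). Between 5 exposures and 1, Pdi and ERp60 were higher, where 3.74% of all probe sets were, and Der-1 was lower, where 4.77% were. The median log2 fold change of the 8 was 0.03, 0.04 and -0.04 in the 3 comparisons in that order, against 0.01, 0.01 and -0.01 over all tested probe sets. The comparisons share groups, so the 3 are not independent of each other.

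**Figure D1:**
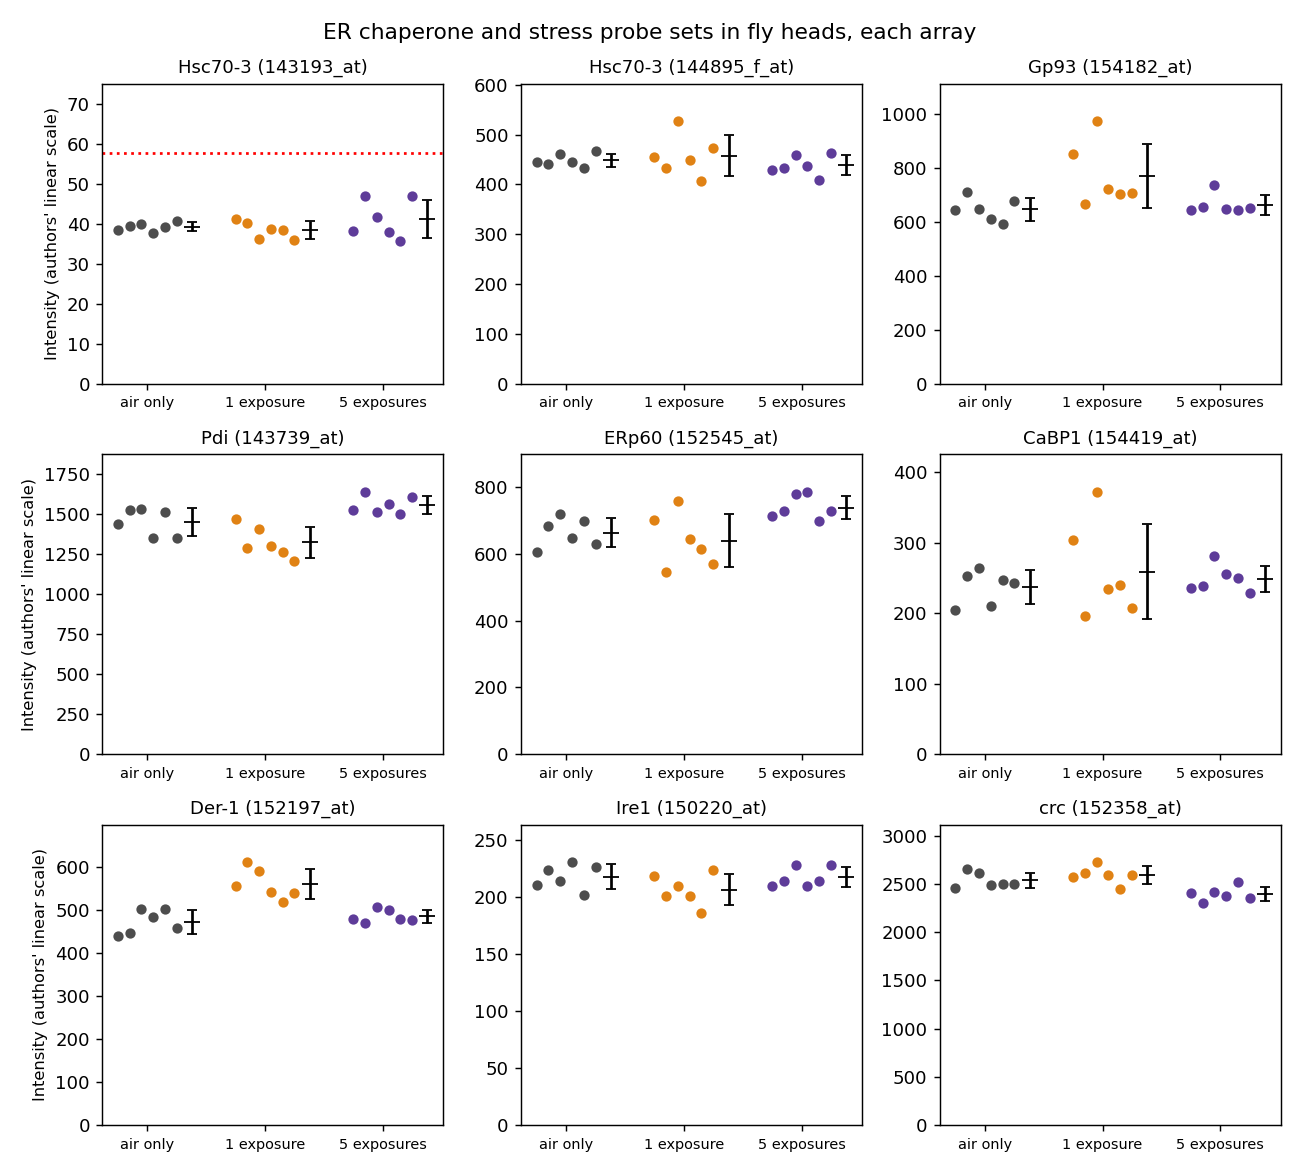
Intensity on the authors' linear scale (y axis) of each of the 9 probe sets on each array, with points in replicate order within air only, 1 exposure and 5 exposures, and mean ± SD of the 6 arrays beside them. The dotted line marks the floor of 57.8. Der-1 is higher after 1 exposure without overlap with either other group, and for Gp93, ERp60 and CaBP1 replicate 3 is the highest of the 1-exposure arrays.

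Of the lumenal chaperones, Hsc70-3 was measured on 144895_f_at. The f in that name is the suffix that Affymetrix gave to probe sets whose probes are shared within a gene family, so signal from related Hsp70-type genes may be included. Its intensity ran from 433 through a median of 445 to 466 in naive heads, from 407 through 452 to 527 after 1 exposure and from 409 through 435 to 463 after 5. All 3 groups overlapped. The fold was 1.02 after 1 exposure (0.947 to 1.09, adjusted p = 0.884), 0.977 after 5 (0.909 to 1.05) and 0.960 between 5 and 1 (0.893 to 1.03). After 1 exposure the sign turned without replicate 3 (log2 -0.02), the highest of that group. The probe set 143193_at stayed between 35.7 and 47.0 on all 18 arrays and was not above the floor on any.

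Gp93, the other large chaperone, ran from 593 through 646 to 709 in naive heads and from 666 through 713 to 973 after 1 exposure. After 5 exposures it ran from 643 through 649 to 735. All 6 single-exposure arrays lay above the naive median, yet the groups overlapped, and the values of 853 in replicate 1 and 973 in replicate 3 stood above the other 4, which reached 720.4 at most. The fold after 1 exposure was 1.18 (1.06 to 1.31), which was not called (limma adjusted p = 0.0724). It was called with the replicate number as a block (adjusted p = 0.0432) and without single-exposure replicate 2 (0.0333), while without replicate 3 the log2 fold change went from 0.24 to 0.17 (adjusted p = 0.138) and without replicate 1 to 0.21 (0.153). Against naive heads the 5-exposure fold was 1.02 (0.921 to 1.14), and between 5 exposures and 1 it was 0.867 (0.780 to 0.965, adjusted p = 0.100, and 0.0496 without single-exposure replicate 2).

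Among the disulfide isomerases, Pdi was lowest after 1 exposure and highest after 5. Its intensities ran from 1348 through 1473 to 1533 in naive heads, from 1206 through 1295 to 1472 after 1 exposure and from 1501 through 1543 to 1640.1 after 5. Each single-exposure array lay below the naive median and each 5-exposure array above it, with overlap in both cases, while the 2 ethanol groups did not overlap. The folds from naive were 0.911 (0.849 to 0.979, adjusted p = 0.162) after 1 exposure and 1.08 (1.001 to 1.15, adjusted p = 0.274) after 5, neither of them called. The fold of 5 exposures over 1 was 1.18 (1.10 to 1.27, log2 0.24 ± 0.05 SE, limma adjusted p = 0.00270). That call held in each of the 29 alternatives run, at log2 0.21 to 0.29.

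ERp60 had the same order of means, 639 ± 79.9 after 1 exposure, 663 ± 44.3 in naive heads and 738 ± 35.7 after 5 (SD, n = 6 arrays each). The arrays ran from 546 through 629.9 to 758 after 1 exposure, from 604 through 665 to 719 in naive heads and from 697 through 728 to 785 after 5. All 6 5-exposure arrays were above the medians of both other groups, with overlap. The comparison of 5 exposures with 1 gave 1.16-fold (1.06 to 1.28, limma adjusted p = 0.0474), a call at the edge of the threshold. It was kept without each of 6 of the 18 arrays (adjusted p from 0.00668 without single-exposure replicate 3) and lost without each of the other 12, with the largest p, 0.133, without single-exposure replicate 2. It was also lost without a filter on low values (0.105), with only the 2 groups fitted (0.0669) and when each group's least correlated array was left out (0.104). From naive the folds were 0.959 (0.871 to 1.06) after 1 exposure and 1.11 (1.01 to 1.23, adjusted p = 0.212) after 5.

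CaBP1, the third isomerase, varied most of the 8. Its within-group SD of 0.23 on the log2 scale was larger than that of 98.3% of tested probe sets, where the median SD was 0.09. After 1 exposure it ran from 197 through 237 to 373, with replicates 3 and 1 at 373 and 304 and no other above 241, while naive arrays ran from 205 through 245 to 265 and 5-exposure arrays from 229 through 245 to 281. The groups overlapped in all 3 comparisons, with folds of 1.07 (0.906 to 1.26) after 1 exposure, 1.05 (0.889 to 1.24) after 5 and 0.981 (0.831 to 1.16) between 5 and 1. No fold of CaBP1 was called, at limma adjusted p from 0.785 to 0.946, and without single-exposure replicate 3 the log2 fold change after 1 exposure went from 0.10 to -0.01.

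Der-1, the Derlin of the degradation route, was the one gene called against naive heads. Its intensities ran from 440.5 through 472 to 504 in naive heads, from 519 through 549.8 to 612 after 1 exposure and from 470.1 through 480.1 to 507 after 5. All single-exposure arrays were above all naive and all 5-exposure arrays, and the latter 2 groups overlapped. Of all tested probe sets 3.01% did not overlap between 1 exposure and naive, 3.66% between 5 exposures and naive and 5.10% between 5 exposures and 1. The fold was 1.18 after 1 exposure (1.11 to 1.27, log2 0.24 ± 0.05 SE, limma adjusted p = 0.00164), 0.868 for 5 exposures over 1 (0.812 to 0.927, adjusted p = 0.00528) and 1.03 for 5 exposures over naive (0.962 to 1.10, adjusted p = 0.752). The 2 called differences were also called in each of the 29 alternatives, with adjusted p up to 0.0206. Beside this result, the 18S rRNA control probe sets had a 3' to 5' log2 ratio of -2.92 ± 0.44 in naive, -1.99 ± 0.23 in single-exposure and -2.13 ± 0.60 in 5-exposure arrays (n = 6 each). That of actin was 2.01 ± 0.08, 2.18 ± 0.12 and 2.21 ± 0.15 in the same order, and those of eIF-4a (0.54, 0.57 and 0.51) and GAPDH (1.30, 1.30 and 1.30) differed by less than their SD. The part of these ratios in the result was not tested.

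Of the stress sensor and its transcription factors, Ire1 ran from 201 through 219 to 230.4 in naive heads, from 185 through 205 to 223 after 1 exposure and from 209 through 214 to 228 after 5. All groups overlapped, and the folds of 0.947 (0.885 to 1.01), 0.997 (0.932 to 1.07) and 1.05 (0.984 to 1.13) were not called. The annotation assigned 152358_at to crc by the gene identifier of ATF4, which matters because crc is also an old synonym of calreticulin. It was the steadiest of the 8 within groups, with a log2 SD of 0.05 that was above that of 1.77% of tested probe sets.

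The arrays of crc ran from 2455 through 2505 to 2658 in naive heads, from 2450.4 through 2595 to 2727 after 1 exposure and from 2304 through 2390.4 to 2525 after 5. All 6 5-exposure arrays lay below the single-exposure median, with overlap. The comparison of 5 exposures with 1 gave a fold of 0.924 (0.878 to 0.973), just outside the threshold (limma adjusted p = 0.0516). It was called in 5 of the 11 alternatives other than leaving out 1 array, with adjusted p down to 0.0181, and in 3 of the 18 that left out 1. With quantile normalization the difference was 0.02 on the log2 scale and not -0.11 (adjusted p = 0.895), so no direction is given for crc. Its folds from naive were 1.02 (0.971 to 1.08) after 1 exposure and 0.945 (0.898 to 0.994, adjusted p = 0.218) after 5. With quantile normalization these 2 differences were -0.02 and -0.0004 on the log2 scale (limma adjusted p = 0.907 and 0.998).

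**Figure D2:**
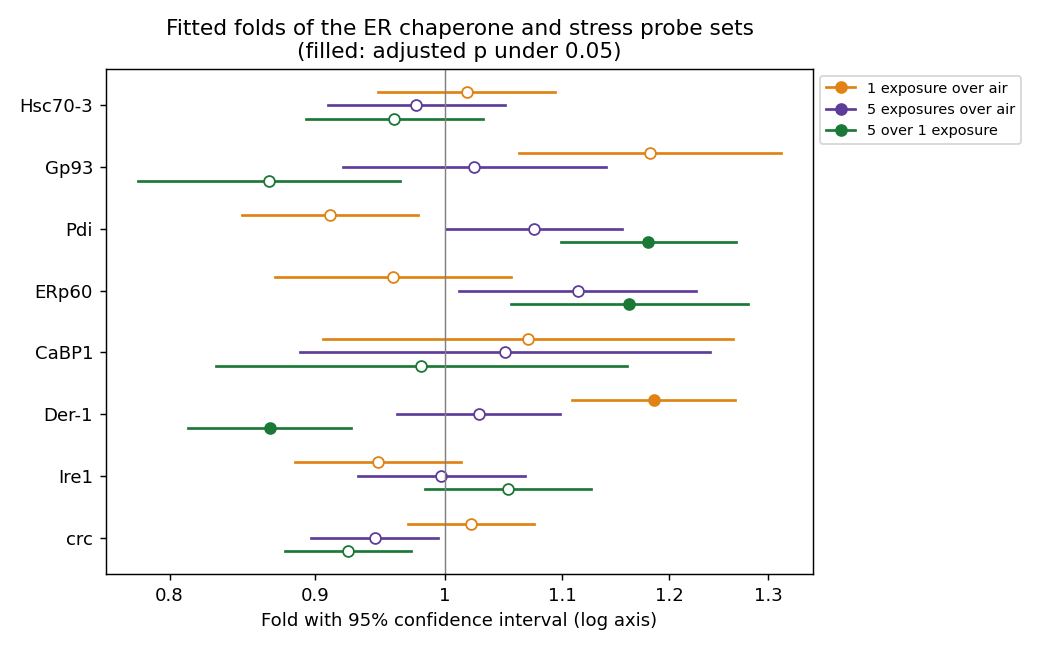
Fitted fold on a log axis with its 95% confidence interval for the 8 tested probe sets in the 3 comparisons, filled where the adjusted p was under 0.05. The filled points are Der-1 after 1 exposure (1.18) and, between 5 exposures and 1, Pdi (1.18), ERp60 (1.16) and Der-1 (0.868).

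The genes also varied together from array to array within a group. Each array's deviation from its group mean was taken on the log2 scale, and probe sets were correlated over the 18 arrays. These values share the arrays' RNA and scaling and describe them only. Over the 28 pairs of the 8 probe sets the median r was 0.369, and 9 pairs (32.1%) had r above 0.5, where the median over all pairs of tested probe sets was 0.00477 and 7.56% were above 0.5. These values depended on 1 array. Without single-exposure replicate 3, an alternative chosen after seeing the data with group means taken again over the other 17 arrays, the median r of the pairs was 0.159 and 7 of 28 (25.0%) were above 0.5, against 0.00556 and 8.17% over all pairs. ERp60 and CaBP1 were the closest pair, at r = 0.91 and Spearman's rho of 0.85. Within the naive, single-exposure and 5-exposure groups taken alone their r was 0.81, 0.97 and 0.65, and over all arrays without the 2 farthest from the median of ERp60 it was 0.83. Without single-exposure replicate 3 it was 0.87. Of the 9310 other probe sets, CaBP1 ranked 3 by its r with ERp60.

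Gp93 and CaBP1 followed, with r = 0.86 (rho 0.69, 0.69 without the 2 farthest arrays and 0.73 without single-exposure replicate 3), and here too CaBP1 ranked 3 of 9310. Within groups its r was 0.98 and 0.79 after 1 and 5 exposures against 0.32 in naive heads. Gp93 with ERp60 had r = 0.72 (0.53 without single-exposure replicate 3) and -0.10 among the naive arrays alone. Pdi with ERp60 had r = 0.70, with 0.74 and 0.82 in naive and single-exposure heads and 0.05 after 5 exposures. Der-1 had r of at most 0.39 with any of the other 7 over all arrays, but its r differed between groups. With ERp60 it was 0.71 in naive heads, 0.04 after 1 exposure and 0.83 after 5 (0.32 over all arrays, 0.62 without the 2 farthest). After 5 exposures Der-1 had r = 0.87 with CaBP1 and 0.67 with Gp93, against 0.41 and -0.68 in naive heads, each over 6 arrays. Pdi after 5 exposures had r of -0.50 with Der-1, -0.56 with CaBP1, -0.27 with Gp93 and -0.89 with crc. With Hsc70-3 and Ire1 the r of Pdi there was 0.36 and 0.11. Differences in r between groups were not tested.

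Single-exposure replicate 3 lay above its group mean on all 8 probe sets, by 0.21 on the log2 scale as a mean, and replicate 1 on 5 of 8, by 0.10. Replicate 5 of that group lay below on all 8, by a mean of -0.10, and replicate 2 was also at -0.10, with 2 of 8 above. In the naive and 5-exposure groups the mean deviation of an array lay between -0.07 and 0.07. The coefficient of variation was higher after 1 exposure than in either other group for all 8 tested probe sets, which were read on the same arrays. That difference was not tested, and the share of all tested probe sets with this order was not computed. For Der-1 the coefficient was 6.24% after 1 exposure against 5.84% in naive heads, and for crc 3.42% against 3.12%. After 1 exposure it was 15.4% for Gp93, 12.5% for ERp60 and 25.9% for CaBP1, against 6.51%, 6.68% and 10.2% in naive heads and 5.42%, 4.84% and 7.54% after 5 exposures (n = 6 each).

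**Figure D3:**
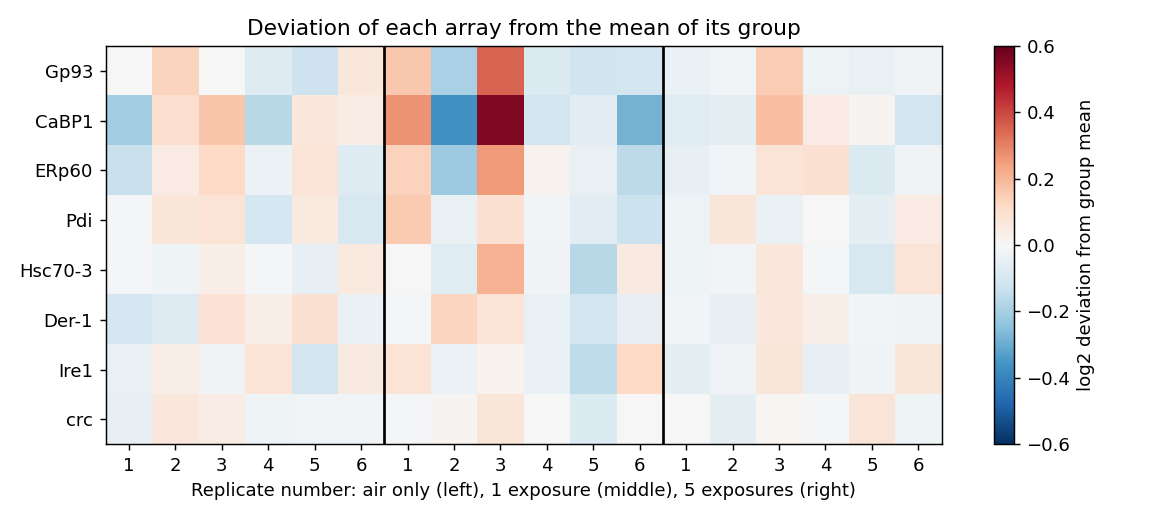
Log2 deviation from the group mean (colour) for the 8 tested probe sets (rows) on each of the 18 arrays (columns by replicate number, with the 3 groups separated by lines). Among the single-exposure arrays, replicate 3 is above its group mean on all 8 rows and replicate 5 below on all 8, and the strongest colour is CaBP1 in replicate 3.

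The 5 probe sets of other genes whose array-to-array deviations were most like those of Hsc70-3 144895_f_at over the 18 arrays belonged to koi (r = 0.83), the polyubiquitin gene Ubi-p5E (0.83), fs(1)K10 (0.82), Osi12 (0.82) and ApepP (0.81). Before group means were subtracted their r with Hsc70-3 was 0.73, 0.38, 0.64, 0.80 and 0.77, and without single-exposure replicate 3 their r after subtraction was 0.70, 0.71, 0.81, 0.80 and 0.59. Gp93, at r = 0.69, ranked 33 among the 9310 probe sets, with r = 0.39 without the 2 farthest arrays and 0.39 without single-exposure replicate 3. Hsc70-3 with CaBP1 went from 0.52 to 0.08 without that replicate. Hsc70-3 with Ire1 did not fall, at r = 0.61 over all arrays, 0.62 without the 2 farthest and 0.77 without that replicate. The probe set of Ubi-p5E is also of the kind with shared probes.

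Another 105 genes of the secretory pathway were grouped in 5 lists, and 81 had a probe set and 71 were tested, each gene on its brightest tested probe set. Of the 71, 3 rose and 1 fell after 1 exposure (4.23% and 1.41%), 1 rose and 0 fell after 5 exposures (1.41% and 0%), and 6 rose and 2 fell between 5 exposures and 1 (8.45% and 2.82%). The same shares over all tested probe sets are those given above for the 8.

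In other ER chaperones and folding enzymes, P58IPK and Grp170 rose after 1 exposure, of 16 tested. None of the 16 was called after 5 exposures or between 5 and 1 (1 and 4 at an unadjusted p under 0.05 in limma). P58IPK is a DnaJ-type co-chaperone of BiP. Its intensity ran from 239 to 259 in naive heads, from 271 to 405 after 1 exposure and from 261 to 291 after 5, so naive arrays overlapped with neither ethanol group. The fold was 1.26 after 1 exposure (1.13 to 1.40, limma adjusted p = 0.00759) and 1.09 after 5 (0.981 to 1.21, adjusted p = 0.418). Single-exposure replicates 3 and 1 were again the highest, at 405 and 356, where the other 4 reached 311. Grp170, a large Hsp70-type protein that helps BiP exchange its nucleotide, ran from 166 to 184 in naive heads and from 176 to 222 after 1 exposure, a fold of 1.14 (1.06 to 1.23, adjusted p = 0.0395). Its call was lost without single-exposure replicate 3 (0.0974) or each of 8 other arrays (0.0508 to 0.0963), with median centring (0.0704), without a filter (0.0699) and with only the 2 groups fitted (0.0563). The median log2 fold change of the 16 was -0.02 after 1 exposure, 0.04 after 5 and 0.03 between them.

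Among 11 other unfolded protein response sensors and effectors none was called against naive heads (1 and 2 at an unadjusted p under 0.05 in limma after 1 and 5 exposures), and 1 rose and 1 fell between 5 exposures and 1. The pseudokinase gene trbl ran from 207 to 222 after 1 exposure and from 187 to 203 after 5, with no overlap (0.903-fold, 0.859 to 0.948, adjusted p = 0.00688), around naive values of 194 to 208. Atf6, which encodes a membrane-bound transcription factor that is released by cleavage in mammals, ran from 216 to 270.3 after 1 exposure and from 261 to 300.4 after 5, with overlap (1.17-fold, 1.06 to 1.30, adjusted p = 0.0474), and that call was lost without each of 13 of the 18 arrays (up to 0.128 without single-exposure replicate 2) and without a filter (0.110). The list medians were 0.07, 0.03 and 0.00 on the log2 scale.

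In the degradation list of 12 genes, sordd1, a RING finger gene, rose after 1 exposure and was lower after 5 than after 1. It ran from 896 to 957 in naive heads, from 965 to 1072 after 1 exposure and from 863 to 1007 after 5, with a fold of 1.11 after 1 exposure (1.04 to 1.18, adjusted p = 0.0426) and of 0.887 for 5 over 1 (0.836 to 0.941, adjusted p = 0.00850). The rise was not called with quantile normalization (0.0872), median centring (0.0971), a replicate block (0.0518), 2 other settings (0.0511 and 0.0701) or without each of 11 of the 18 arrays (up to 0.0958), and the fall not with quantile normalization (0.138). Npl4 and Ufd1, partners in the complex that pulls ubiquitinated proteins from the ER membrane, moved up between 1 exposure and 5, at 1.13-fold (1.05 to 1.21, adjusted p = 0.0316) and 1.11-fold (1.05 to 1.18, adjusted p = 0.0238). Npl4 was also 1.14-fold higher after 5 exposures than in naive heads (1.06 to 1.22, adjusted p = 0.0232). TER94 of the same list went the other way between 1 exposure and 5, at 0.904-fold (0.841 to 0.972), and was not called (limma adjusted p = 0.0827). No statement is made for the complex as a whole. Leaving out 1 array ended the call in 6 of 18 cases for each Npl4 comparison (up to 0.0826) and in 4 for Ufd1 (up to 0.0667). With each group's least correlated array left out, the change between 1 exposure and 5 was not called for Npl4 (0.0959, and 0.0514 without a filter) or Ufd1 (0.0895). The list medians were 0.03, 0.05 and 0.01 on the log2 scale.

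Of 16 N-glycosylation genes 1 was called in any comparison, Dpm1, which makes the mannose donor of the ER. It was at 1.10-fold between 5 exposures and 1 (1.04 to 1.17, adjusted p = 0.0266), from a range of 128 to 147 to a range of 145 to 161, and without 1 array the call was lost in 5 of 18 cases (up to 0.0767), as it was with each group's least correlated array left out (0.0608). In ER exit and early secretory transport, bai and loj of the p24 family of cargo receptors rose between 1 exposure and 5. The intensity of bai ran from 258 to 302 after 1 exposure and from 317 to 359 after 5 (1.20-fold, 1.12 to 1.28, adjusted p = 0.000671), and that of loj from 81.2 to 100.3 and from 103 to 127 (1.26-fold, 1.14 to 1.40, adjusted p = 0.00293). Neither gene overlapped between the ethanol groups, as Pdi did not. After 1 exposure loj was below naive heads (93.2 to 127 there), at 0.814-fold (0.736 to 0.901, adjusted p = 0.0134), and bai was at 0.914-fold (0.855 to 0.978, adjusted p = 0.145). These 2 lists had medians of 0.00 after 1 exposure, 0.06 and 0.07 after 5, and 0.04 and 0.06 between them on the log2 scale.

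**Figure D4:**
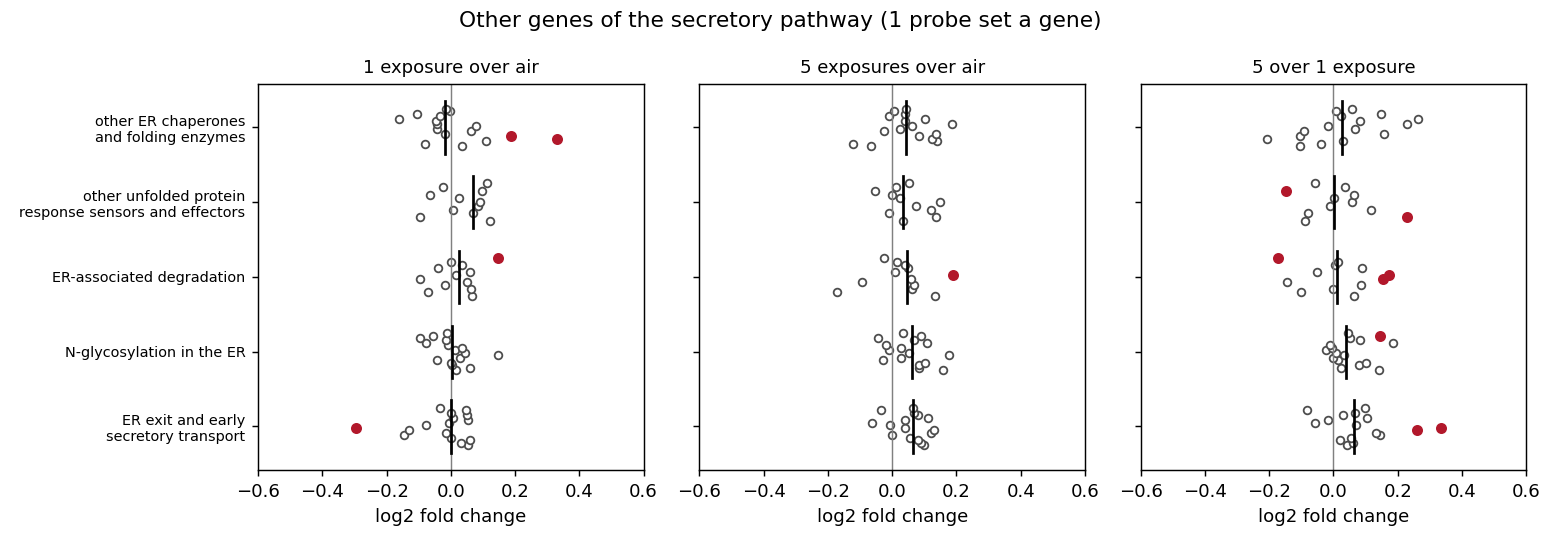
Log2 fold change (x axis) of each tested gene in the 5 lists of other secretory pathway genes, with 1 panel per comparison, a bar at each list's median and filled points at an adjusted p under 0.05. The called genes are few in each panel, 4 after 1 exposure, 1 after 5 exposures and 8 between 5 exposures and 1.

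Other tissues of the head moved beside these comparisons. Between 5 exposures and 1, 7 of 10 tested muscle markers and 6 of 10 cuticle markers were lower and none of either was higher, and of 11 fat body markers 3 were higher and 1 lower. The summed intensity of the muscle markers ran from 11171 to 16719 in naive, 11515 to 14029 in single-exposure and 8007 to 11461 in 5-exposure arrays, and that of the cuticle markers from 7527 to 11706, 7037 to 10388 and 4247 to 7068. After 1 exposure 0 of the 10 muscle and 0 of the 10 cuticle markers were called (4 and 5 at an unadjusted p under 0.05 in limma), while 3 of the fat body markers were higher and 1 lower. The summed fat body markers ran from 44204 to 48665 in naive, 47659 to 50058 in single-exposure and 45842 to 53521 in 5-exposure arrays. Most of that sum was Yp1, Yp2 and Yp3, with naive means of 11545.5, 11312 and 10293, which were not called in any comparison. The sum therefore does not show changes of dimmer markers, such as Lsd-1 at 3.93-fold and fit at 0.398-fold after 1 exposure. Against naive heads after 5 exposures 8 muscle and 7 cuticle markers were lower and 6 fat body markers higher. Among 5 tested glial markers only the transporter gene Gat was called, at 0.789-fold after 1 exposure (0.711 to 0.875, limma adjusted p = 0.00520) and 0.795-fold after 5 (adjusted p = 0.00552). All 5 were below 0 on the log2 scale after 1 exposure, moody by only -0.001, and 2 of the 5 were above 0 after 5 exposures. Of 7 photoreceptor markers the channel gene trpl was at 0.852-fold after 5 exposures over naive (adjusted p = 0.00355) and 0.760-fold for 5 over 1 (7.03e-06), and Arr1 at 1.12-fold after 5 (0.0354). The haemocyte marker NimC4, 1 of 4 tested, was at 0.488-fold after 5 exposures (1.38e-05) and 0.632-fold for 5 over 1 (0.000944). The other haemocyte markers went the other way after 5 exposures, Hml at 1.08-fold, Pxn at 1.01-fold and crq at 1.04-fold, none of them called. Of 2 tested markers of testis or accessory gland, which are not head tissues, Mst84Da was at 0.869-fold after 5 (0.0310). The other, Mst87F, was at 1.04-fold and was not called. In whole heads a smaller share of a tissue and less RNA per cell cannot be told apart, and the part of these shifts in the differences of Pdi, ERp60 and Der-1 was not tested.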

How the data were processed

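Biotin-labelled cRNA from 6 µg of total RNA per sample was hybridised to one-colour Affymetrix arrays, per the labels. The deposited file held the authors' intensity per probe set on a linear scale, already summarised and on a common scale between arrays. Software, normalization and detection calls are not given in the sources used. Gene symbols came from the platform annotation, checked through gene identifiers against RefSeq (12444 probe sets with 1 symbol, 327 with several, 1239 with none).

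Values were floored at the 20th percentile of all intensities (57.8) before log2. Leaving out 44 controls and the dimmest 33.3% by mean log2 kept 9311 probe sets. The 18 arrays were fitted together by group in limma 3.58.1 (R 4.3.3, lmFit and eBayes, 15 residual degrees of freedom, two-sided). The array number limits precision. The procedure was tested on simulated data. Python 3.11.15 and matplotlib 3.10.9 made tables and plots.

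Members, lists and tests were chosen with earlier results of these data known. Text genes are all members and, per list, up to 4 called genes with the smallest p. TER94, which was not called, is given beside Npl4 and Ufd1. The groups share replicate numbers 1 to 6, but the labels tie them to nothing, so the main fit has no block.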

Additional observations from a re-analysis of the deposited data

Results flagged for a closer look

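Gp93 in five-exposure replicate 3 stood at an intensity of 735, away from the other 5 arrays of that group. On the log2 scale the gap to the nearest was 0.864 of the group's range. Of 27 groups of 6 looked at this was the 1 such case, and chance gives about 1 in 20.

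The change from naive heads differed between 1 and 5 exposures for 3 genes by the test of that difference in limma, which is the direct comparison of the ethanol groups. It was 0.24 on the log2 scale for Pdi (adjusted p = 0.00270), 0.22 for ERp60 (adjusted p = 0.0474) and -0.20 for Der-1 (adjusted p = 0.00528), as 5 exposures minus 1.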

How the results depend on the processing

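Alternatives were 29, of which 18 left out 1 array. The number of members called after 1 exposure was 1 and became 2 with a replicate block (Gp93 joined Der-1) and lay between 1 and 2 with 1 array left out. After 5 exposures it stayed at 0 in all alternatives, and between 5 exposures and 1 it was 3, between 2 and 4 with 1 array left out. Of 1070 values of single genes under an alternative, 976 kept their side of the threshold, 83 lost a call, 11 gained one and 0 reversed with a call. Over the 18 pairings of same-numbered arrays from different groups, the r of their deviations ran from -0.24 to 0.52. In 7 of the 18 the best match among the 6 arrays of the other group was the array of the same number. Whether some replicate numbers share a source of variation that the main fit leaves out was not tested. The main fit has no block because the labels tie the numbers to nothing, and whether they mark pairs cannot be told. The block raised the calls over all probe sets from 412 to 502 after 1 exposure, from 590 to 683 after 5 and from 792 to 898 between them. Signal over background limits the dimmer Hsc70-3 probe set, and the cause of these changes was not tested.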
